A study of Rattus norvegicus with 20 samples.

Results

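The 52 genes described here encode the enzymes that make, recycle and use glutathione, the enzymes that remove superoxide and peroxides, and the thioredoxin system. They were taken by gene symbol from the protein-coding genes of a table of 30560 genes. Poly-A RNA was sequenced in 10 male rats, each of which gave a piece of renal cortex and a piece of left ventricle. The series title calls the rats hypertensive, their genotype is labelled WT, and no strain is named. The groups were kidney cortex of 5 rats given Maresin 1 (MaR1), kidney cortex of 5 rats given vehicle, left ventricle of the same 5 MaR1 rats, and left ventricle of the same 5 vehicle rats. MaR1 is a product of docosahexaenoic acid, made by macrophages and known for its part in ending inflammation. Subcutaneous osmotic minipumps delivered it, at up to 1.3 µg/kg/day, or the vehicle. All 10 rats carried a blood pressure telemeter implanted at 8 weeks of age and ate 4% NaCl for 3 weeks, so no group was on normal salt and both arms are models of salt-fed animals only. The animals RB035 to RB039 received MaR1 and RB030 to RB034 received vehicle.

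Glutathione is a tripeptide that cells use as their main small thiol. Glutamate-cysteine ligase joins its first 2 amino acids and glutathione synthase adds the third, glutathione reductase returns the oxidised form to the reduced form with NADPH, and gamma-glutamyltransferase at the cell surface starts the breakdown of glutathione outside the cell. Glutathione S-transferases couple the thiol to reactive compounds, glutathione peroxidases spend it on peroxides, and peroxiredoxins do the same work with electrons from thioredoxin. The proximal tubule of the kidney is known for rapid turnover of glutathione, and cardiomyocytes are known for their dense mitochondria, which hold their own superoxide dismutase, peroxiredoxin and thioredoxin.

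Levels are fragments per kilobase of gene length, scaled to library size (FPKM), which scales for gene length, so that levels of different genes can be compared. Of the 52 members, Gpx5, Gpx6 and Gstt4 were listed at 0 in all 20 libraries, and Ggt6, Ggt7 and Gstm3l stayed under a mean of 1 FPKM in kidneys. The other 46 reached the mean of 1 FPKM required for a test in kidneys, and 42 reached it in hearts, where Gpx2, Gsta2, Gsta3 and Gsta5 did not. Plasma glutathione peroxidase, Gpx3, is labelled a long noncoding RNA in the table and so is no member, although its level was 955 to 2477 FPKM in MaR1 kidneys and 1697 to 2164 FPKM in vehicle kidneys. Several members lie beside close copies and their reads may have been split between them: 6 GST mu genes lie on chromosome 2 and Gstm6l overlaps Gstm2 and Gstm3l on the same strand, while GST alpha genes lie in groups of 3 on chromosomes 8 and 9. A peroxiredoxin 1-like gene with 55.8 to 66.8 FPKM in MaR1 kidneys and 50.9 to 70.4 FPKM in vehicle kidneys may likewise share reads with Prdx1.

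Between 19383232 and 30342034 fragments per library had been assigned to a gene. Organ labels matched the contents: 14 proximal tubule genes (Aqp1, which hearts also express, left out) summed to 6584 to 11746 FPKM in kidneys and 6.54 to 70.6 FPKM in hearts, and 9 cardiomyocyte genes summed to 0.890 to 2.17 FPKM in kidneys and 14057 to 24373 FPKM in hearts. Libraries of the same organ differed in transcripts of other tissue parts. Inner medulla genes (10 of 10 matched) summed to 33.1 to 69.7 FPKM in MaR1 kidneys and 14.9 to 18.1 FPKM in vehicle kidneys, and urothelium genes (7 of 7 matched) to 0.886 to 90.6 FPKM in MaR1 kidneys and 0.410 to 4.87 FPKM in vehicle kidneys, with Upk2 and Krt5 at 0 in at least 1 kidney of each group. Atrial genes (7 of 7 matched) summed to 398 to 5506 FPKM in MaR1 hearts and 517 to 10138 FPKM in vehicle hearts. The inner medulla sums parted by treatment, so the tissue taken and an effect of MaR1 cannot be told apart there. In bulk tissue such as this, fewer cells of a type and less RNA per cell cannot be told apart.

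The comparison of kidney cortex with left ventricle showed higher levels in kidney for glutathione synthesis and breakdown and for GST alpha and theta, and higher levels in heart for Txn2, Txnrd2, Prdx3 and Sod2. With vehicle, 39 of 46 members differed between the organs (84.8%, where 77.0% of all 12978 genes tested differed). Of these, 26 were higher in kidney, where 40.0% of all genes were, and 13 were lower in kidney, where 37.0% of all genes were. With MaR1, 40 of 46 members differed, 26 higher and 14 lower in kidney, against 78.2%, 40.3% and 37.9% of 13006 genes. Before adjustment 39 members with vehicle and 40 with MaR1 had a p under 0.05, where 78.2% and 79.5% of all genes had. Of the 46, Gpx2, Gsta3 and Gsta5 in both treatments, and Gsta2 with vehicle, entered only through their kidney level. Mgst2, with vehicle, entered only through its heart level. Such entry favours a difference, so the calls of these genes are descriptions. Among genes averaging at least 1 FPKM in each organ, a limit chosen after seeing the data, 34 of 41 members differed with vehicle (22 higher, 12 lower, against 73.4%, 37.9% and 35.5% of all 10924 genes). With MaR1 37 of 43 did (23 higher, 14 lower, against 75.0%, 38.0% and 36.9% of 11010 genes). The shares called in either direction are near those of all genes and are no result about the members. The share called higher in kidney was above that of all genes, and the share called lower was below. This held with and without that limit and was not tested. With that limit the median log2 difference was 0.63 over the members in both treatments, and 0.02 with vehicle and 0.01 with MaR1 over all genes. Without it the median log2 difference, kidney over heart, was 0.78 over the members and 0.03 over all genes with vehicle, and 0.76 and 0.02 with MaR1. Organ values did not overlap in 37 members with vehicle and in 37 with MaR1, where 65.9% and 66.8% of all genes did not. The test was limma on log2(FPKM + 0.5) with Benjamini-Hochberg adjustment over all genes and a threshold of 0.05. Log2 differences on this scale understate those of genes near 0, and are given ± SE.

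**Figure D1:**
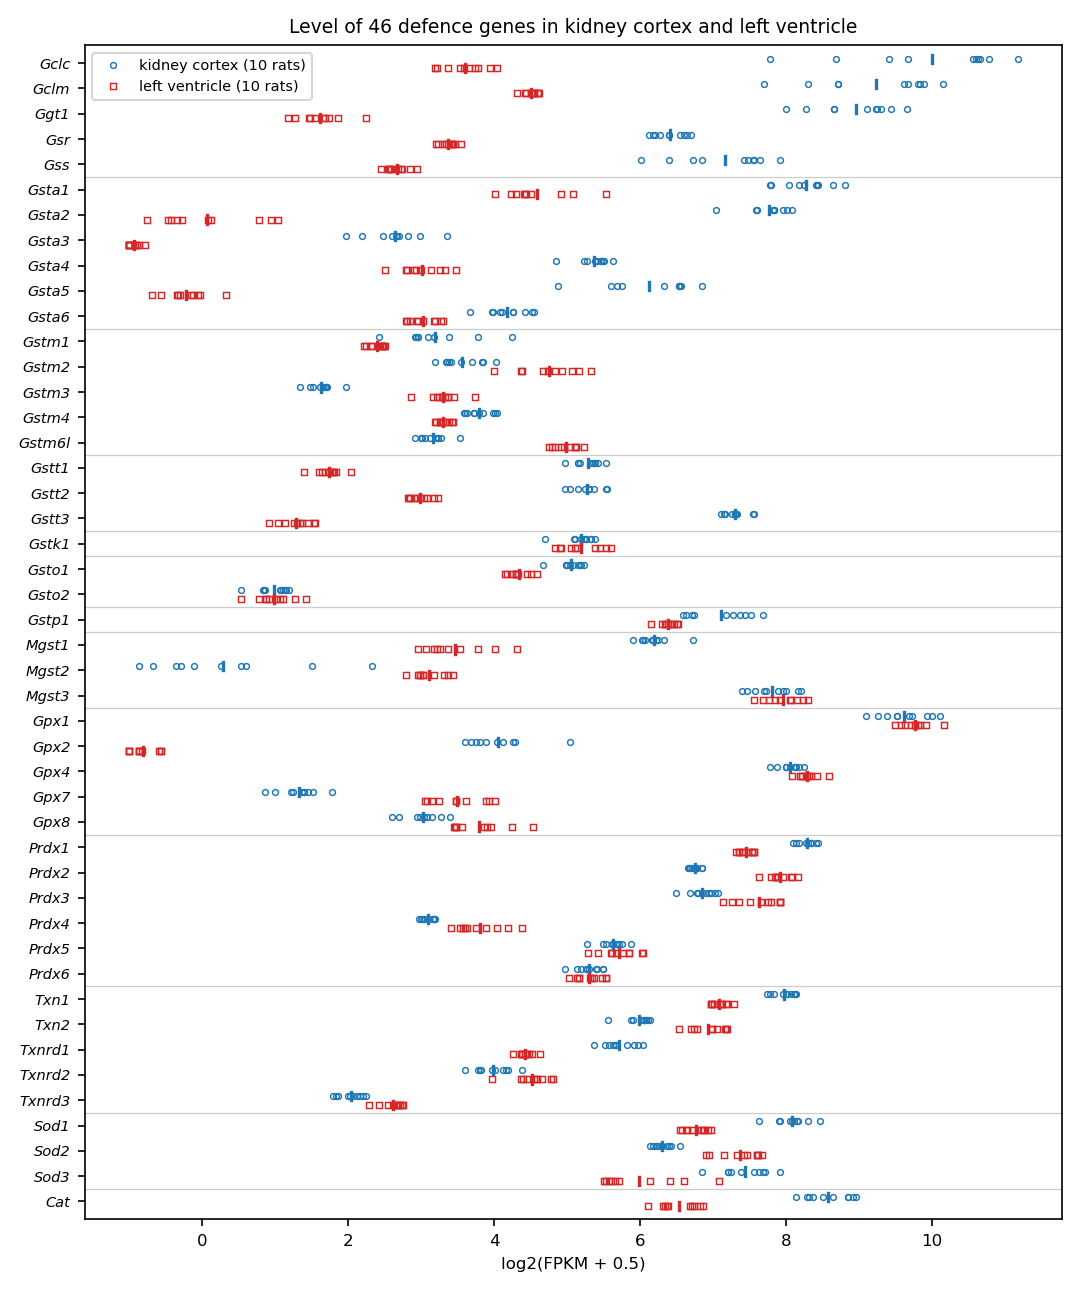
Level, as log2(FPKM + 0.5), of the 46 tested members in every library, with kidney cortex as blue circles above left ventricle as red squares (10 rats each, MaR1 and vehicle together); vertical ticks are means and grey lines part the families. Gclc, Ggt1, Gsta2, Gsta5 and Gstt3 show the widest gaps toward kidney, and Mgst2 and Gpx7 the widest toward heart.

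Glutathione synthesis carried the highest member in the kidney. Gclc, the catalytic subunit of glutamate-cysteine ligase (ENSRNOG00000006302), had a mean of 1251 FPKM over the 10 kidneys, rank 27 among all genes of the table, and 11.9 FPKM over the 10 hearts. With vehicle its log2 difference was 6.07 ± 0.47 (adjusted p = 1.78e-07) and with MaR1 6.72 ± 0.38 (adjusted p = 1.94e-08). Gclm, the modifier subunit that raises the activity of the ligase, had 688 FPKM in kidneys and 22.4 FPKM in hearts, and Gss, glutathione synthase, 154 and 5.89 FPKM. The log2 difference of Gclm was 4.4 ± 0.33 with vehicle and 5.07 ± 0.29 with MaR1. For breakdown, Ggt1, a gamma-glutamyltransferase of the brush border, had 528 FPKM in kidneys against 2.62 FPKM in hearts, a log2 difference of 7.28 ± 0.25 with vehicle (155-fold, adjusted p = 8.55e-11) and 7.42 ± 0.24 with MaR1. Gsr, which recycles oxidised glutathione, was higher in kidney as well, by 3.13 ± 0.1 with vehicle. Summed over these 5 genes with Ggt6 and Ggt7, both under 1 FPKM, kidneys held 3152 ± 1212 FPKM with MaR1 and 2259 ± 1181 FPKM with vehicle, and hearts 53.6 ± 3.80 FPKM with MaR1 and 52.7 ± 3.77 FPKM with vehicle (SD, n = 5 each). As the file gives positions, with no genome build named, Gclc spans 78630127 to 78668544 on chromosome 8, Gclm 210347482 to 210367535 on chromosome 2, Gss 144047850 to 144078198 on chromosome 3 and Ggt1 13074700 to 13108442 on chromosome 20.

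Promoters are shown for Gclc, Gclm, Gss and Ggt1, since their transcripts were high and low in the same kidneys. Those of Gpx2 and Gstp1 are shown as examples of members that hold the searched motif. Each window runs 5′ to 3′ on the gene's own strand, over the 250 bases before and 50 bases after the RefSeq start (build GRCr8), and capitals mark a match to TGACNNNGC, the core of the antioxidant response element, on either strand.
Gclc (chr8:87510226-87510525, plus strand): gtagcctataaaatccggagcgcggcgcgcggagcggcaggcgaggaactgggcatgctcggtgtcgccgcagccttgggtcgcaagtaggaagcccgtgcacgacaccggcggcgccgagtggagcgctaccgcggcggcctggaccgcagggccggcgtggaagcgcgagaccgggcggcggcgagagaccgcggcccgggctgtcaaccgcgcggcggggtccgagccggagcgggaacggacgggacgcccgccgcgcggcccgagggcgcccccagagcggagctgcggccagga
Gclm (chr2:213031885-213032184, plus strand): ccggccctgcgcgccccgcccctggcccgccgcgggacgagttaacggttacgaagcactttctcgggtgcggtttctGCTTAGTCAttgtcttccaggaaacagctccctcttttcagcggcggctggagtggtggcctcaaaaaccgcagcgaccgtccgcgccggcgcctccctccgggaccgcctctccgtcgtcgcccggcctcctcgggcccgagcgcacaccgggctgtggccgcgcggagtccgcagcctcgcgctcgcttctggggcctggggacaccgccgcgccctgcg
Gss (chr3:164538257-164538556, minus strand): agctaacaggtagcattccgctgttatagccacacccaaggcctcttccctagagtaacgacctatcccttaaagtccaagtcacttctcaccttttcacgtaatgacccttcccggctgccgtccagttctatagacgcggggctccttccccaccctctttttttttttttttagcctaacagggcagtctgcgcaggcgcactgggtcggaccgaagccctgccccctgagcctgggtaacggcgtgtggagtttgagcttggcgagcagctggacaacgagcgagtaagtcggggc
Ggt1 (chr20:13095055-13095354, minus strand): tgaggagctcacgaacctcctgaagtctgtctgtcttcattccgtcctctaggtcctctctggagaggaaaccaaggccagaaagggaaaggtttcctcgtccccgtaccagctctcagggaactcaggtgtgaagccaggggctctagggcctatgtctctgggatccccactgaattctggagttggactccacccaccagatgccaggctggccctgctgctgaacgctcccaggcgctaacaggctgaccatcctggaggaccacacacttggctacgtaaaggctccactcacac
Gpx2 (chr6:101229984-101230283, minus strand): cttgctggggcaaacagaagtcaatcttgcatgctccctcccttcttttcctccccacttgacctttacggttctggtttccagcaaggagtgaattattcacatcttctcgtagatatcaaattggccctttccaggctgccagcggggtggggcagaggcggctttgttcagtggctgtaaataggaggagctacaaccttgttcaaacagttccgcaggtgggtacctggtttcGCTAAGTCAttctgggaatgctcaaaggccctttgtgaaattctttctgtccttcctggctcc
Gstp1 (chr1:210769656-210769955, minus strand): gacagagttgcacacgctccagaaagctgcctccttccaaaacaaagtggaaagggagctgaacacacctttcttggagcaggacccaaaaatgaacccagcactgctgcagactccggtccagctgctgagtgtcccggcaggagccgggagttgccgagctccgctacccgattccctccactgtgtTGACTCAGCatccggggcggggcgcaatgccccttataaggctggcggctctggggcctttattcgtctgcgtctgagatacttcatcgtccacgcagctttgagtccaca
The core lay 172 to 164 bases before the start of Gclm, on the opposite strand, and 61 to 53 bases before the start of Gstp1, on the gene's strand. In Gpx2 it lay 13 to 5 bases before the start, on the opposite strand. The windows of Gclc, Gss and Ggt1 do not hold these letters. RefSeq windows were matched by symbol for 43 of the 52 members, and 11 of the 43 (25.6%) held the core, namely Gclm, Gpx2, Gsta1, Gsta2, Gsta3, Gstp1, Prdx1, Prdx4, Prdx5, Sod2 and Txnrd1. Of all 27457 genes with a window, 13.1% held it. A match of letters is no evidence of binding.

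Glutathione S-transferases divided by class. GST alpha genes, the main class of liver and tubule, summed to 677 ± 91.7 FPKM in MaR1 kidneys, 681 ± 133 FPKM in vehicle kidneys, 42.1 ± 11.4 FPKM in MaR1 hearts and 40.3 ± 7.81 FPKM in vehicle hearts. Gsta1 and Gsta2 led the class in kidneys, at 318 and 221 FPKM, and Gsta2 was near 0 in hearts, at a mean of 0.650 FPKM. Its log2 difference, kidney over heart, was 8.07 ± 0.2 with vehicle and 7.32 ± 0.24 with MaR1. Gsta5, at 0.370 FPKM in hearts, differed by 6.12 ± 0.29 with vehicle. The vehicle values of both, and of Mgst2, are descriptions, since these genes were tested through 1 organ only. The theta class was also a kidney class, with Gstt3 at 159 FPKM in kidneys and 1.96 FPKM in hearts and a log2 difference of 6.05 ± 0.1 with vehicle and 5.99 ± 0.11 with MaR1.

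The mu class ran the other way as a sum, with 44.2 ± 6.43 FPKM in MaR1 kidneys and 46.8 ± 4.11 FPKM in vehicle kidneys against 83.5 ± 8.09 FPKM in MaR1 hearts and 81.7 ± 13.7 FPKM in vehicle hearts. Within it Gstm6l, Gstm3 and Gstm2 were lower in kidney, by log2 differences of -1.9 ± 0.09, -1.83 ± 0.08 and -1.08 ± 0.24 with vehicle, while Gstm1 and Gstm4 were higher, by 0.96 ± 0.22 and 0.56 ± 0.08. Without RB036 the call of Gstm1 was lost with MaR1. Of the microsomal transferases, Mgst1 was higher in kidney (2.58 ± 0.15 with vehicle), and Mgst2, which can also make leukotriene C4, was the member with the largest difference toward heart, 1.07 FPKM in kidneys and 8.20 FPKM in hearts (-3.16 ± 0.24 with vehicle, 8.92-fold lower in kidney, and -2.48 ± 0.44 with MaR1, adjusted p = 0.000319). Gstp1, the pi class, averaged 158 ± 38.2 FPKM in MaR1 kidneys and 128 ± 38.0 FPKM in vehicle kidneys, and was 0.63 ± 0.17 higher in kidney than in heart with vehicle.

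Peroxidases had no common direction. Gpx1, the main peroxidase of cytosol and mitochondria, had 809 FPKM in kidneys and 881 FPKM in hearts, ranks 39 and 46 among all genes, and its organ difference was not called (0.04 ± 0.15 with vehicle, -0.32 ± 0.15 with MaR1). Gpx4, which reduces lipid hydroperoxides in membranes, had 267 FPKM in kidneys and 316 FPKM in hearts, and was called lower in kidney with MaR1 only (-0.28 ± 0.08, adjusted p = 0.00760, against -0.2 ± 0.11 and adjusted p = 0.114 with vehicle). Under quantile normalization the sign of Gpx4 turned to 0.14 with MaR1, where the call was lost (adjusted p = 0.0590), and to 0.19 with vehicle, where it was called higher in kidney (adjusted p = 0.00906), so its direction rests on the scaling. Gpx2, known from the gut epithelium, was at 11.7 to 32.3 FPKM in kidneys and at 0 to 0.178 FPKM in hearts. Gpx7 and Gpx8, peroxidases of the endoplasmic reticulum, were lower in kidney, by -2.13 ± 0.19 and -0.93 ± 0.16 with vehicle. Without RB038 the call of Gpx8 was lost with MaR1.

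Several thioredoxin, peroxiredoxin and superoxide dismutase genes differed by compartment. Of the cytosolic forms, Txn1 (thioredoxin), Txnrd1 (its reductase), Prdx1 and Sod1 were higher in kidney, by 0.95 ± 0.09, 1.3 ± 0.09, 0.81 ± 0.09 and 1.37 ± 0.14 with vehicle. Of forms found in mitochondria, Txn2, Txnrd2, Prdx3 and Sod2 were lower in kidney, by -0.99 ± 0.13, -0.49 ± 0.13, -0.81 ± 0.15 and -1.1 ± 0.12 with vehicle. Sod2 for example averaged 79.1 FPKM in kidneys and 168 FPKM in hearts, and Sod1 274 FPKM in kidneys and 109 FPKM in hearts. Prdx2, a cytosolic form, stood apart from Prdx1 and was lower in kidney, at 107 FPKM against 243 FPKM in hearts. Prdx4 of the endoplasmic reticulum was lower in kidney (-0.69 ± 0.11 with vehicle), Sod3, the secreted dismutase, was higher (1.63 ± 0.2), and catalase (Cat), the peroxisomal enzyme, was higher (1.89 ± 0.17), at 391 FPKM in kidneys and 93.9 FPKM in hearts. Gpx1, Mgst3, Gsto2, Gstk1, Prdx5 and Prdx6 were not called in either organ comparison, and of these Gpx1, Mgst3 and Prdx6 passed with vehicle under quantile normalization (0.59, 0.32 and -0.2), Mgst3 with a turned sign. Without RB039, Gpx1 and Mgst3 were called lower in kidney with MaR1. With RB039 their differences with MaR1 were -0.32 and -0.27, and under quantile normalization 0.17 and 0.07, none called. The direction of these 2 members thus rests on the scaling as well. Beside Gpx1 and Gpx4, the highest members in hearts were Mgst3 at 252 FPKM and Prdx2 and Prdx3 at 243 and 201 FPKM.

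MaR1 against vehicle in kidney cortex was the first treatment comparison. No member was called, and none of all 12446 genes was (0.00%). Of the 46 members tested, 26 had a higher and 20 a lower mean log2 level with MaR1, the median log2 fold change was 0.03 (0 over all genes), and 1 had an unadjusted p under 0.05, where 6.75% of all genes had. That member was Txnrd3, a thioredoxin reductase known for its expression in testis. It had 3.51, 2.97, 3.12, 3.08 and 3.56 FPKM in MaR1 kidneys, against 4.25, 4.10, 3.70, 3.99 and 3.87 FPKM in vehicle kidneys, and the groups did not overlap, as in 1.23% of all genes. Its log2 fold change was -0.26 ± 0.07 (unadjusted p = 0.00290, adjusted p = 0.588).

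Of the next members by p, Gsta6 had 12.2 to 21.0 FPKM with MaR1 and 16.4 to 23.0 FPKM with vehicle (-0.3 ± 0.14, adjusted p = 0.742), and Gstm3 had 2.65 to 3.42 FPKM with MaR1 and 2.04 to 2.76 FPKM with vehicle (0.2 ± 0.09, adjusted p = 0.752). Gpx8, Gstt3 and Gstm6l followed, with log2 fold changes of 0.26 ± 0.12, -0.18 ± 0.09 and 0.2 ± 0.09 (adjusted p = 0.753 each). In all 3 the groups overlapped. Inner medulla genes differed between the same groups. Of these, 8 of 8 tested had a higher level with MaR1 and an unadjusted p under 0.05 (6.75% of all genes had such a p), although none passed the adjustment. The filter was a mean over both groups, so such a gene could enter through the MaR1 kidneys, and this count is a description. The part of inner medulla transcript in the values of the members was not tested. The 95% interval of the fold change lay within 1.5-fold for 32 of the 46 members, so a larger average change of those was outside the interval. For Gclc it ran from -0.6 to 2.01 on the log2 scale, which leaves room for a change of several-fold.

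**Figure D2:**
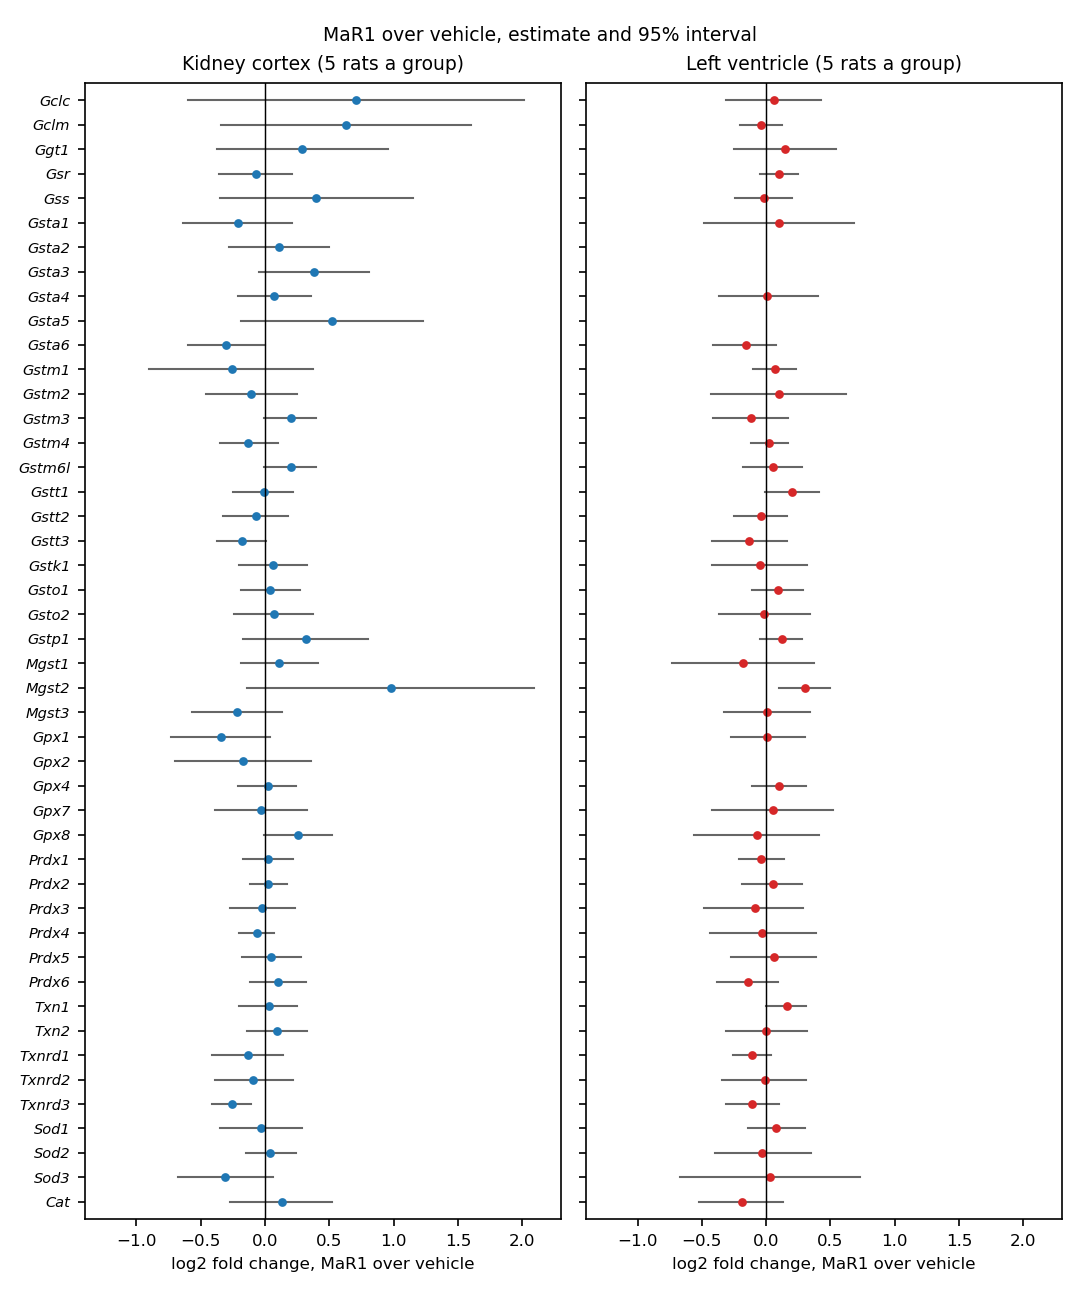
Log2 fold change, MaR1 over vehicle, of each member (points) with its 95% interval (lines), in kidney cortex on the left and left ventricle on the right, 5 rats a group; the line at 0 marks no difference, and 4 members under the filter in hearts have no point there. Intervals are widest in kidneys for Gclc and Mgst2, and only those of Txnrd3 in kidneys and of Mgst2 and Txn1 in hearts belong to an unadjusted p under 0.05.

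In the left ventricle no member was called either, nor any of 12237 genes (0.00%). Among 42 members tested, 23 had a higher and 19 a lower mean log2 level with MaR1, the median was 0.01 (0.01 over all genes), no member had groups that did not overlap (0.842% of all genes had), and 2 had an unadjusted p under 0.05, where 4.60% of all genes had. Mgst2 had 9.44, 8.55, 9.79, 10.3 and 7.45 FPKM in MaR1 hearts, against 7.67, 7.43, 7.66, 6.42 and 7.26 FPKM in vehicle hearts. Of the MaR1 hearts, RB039 lay among the vehicle values and the other 4 above them (0.3 ± 0.09, unadjusted p = 0.00727, adjusted p = 0.973). Txn1 had 146, 156, 144, 136 and 136 FPKM in MaR1 hearts, against 126, 129, 125, 139 and 125 FPKM in vehicle hearts, with RB033 of the vehicle hearts inside the MaR1 range (0.16 ± 0.07, unadjusted p = 0.0440, adjusted p = 1.00). Gstt1, Txnrd1, Gstp1 and Gsta6 followed, with log2 fold changes of 0.2 ± 0.1, -0.11 ± 0.07, 0.12 ± 0.08 and -0.16 ± 0.11 (adjusted p = 1.00 each). The 95% interval lay within 1.5-fold for 38 of 42 members.

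The difference between the responses of the organs, heart minus kidney, was called for no member and for none of 12984 genes (0.00%). Of 46 members, 1 had an unadjusted p under 0.05, where 5.50% of all genes had such a p. It was that of Gsta2, which had 0.287, 1.55, 1.21, 0.559 and 1.42 FPKM in MaR1 hearts, against 0.586, 0.223, 0.0930, 0.328 and 0.243 FPKM in vehicle hearts, and 195 to 250 FPKM in MaR1 kidneys against 132 to 270 FPKM in vehicle kidneys (difference of log2 responses 0.75 ± 0.33, adjusted p = 0.881). In the hearts the 14 proximal tubule genes summed to 16.7, 70.6, 42.0, 30.9 and 44.8 FPKM with MaR1, against 20.2, 7.89, 6.54, 11.3 and 17.8 FPKM with vehicle. The heart with the highest Gsta2, RB036, was also the heart with the most proximal tubule transcript, and the part of these transcripts in the Gsta2 value was not tested. Gsta3 came next at -0.44 ± 0.22, and as it had 0 to 0.0818 FPKM in hearts, this is in the main its kidney value (0.38 ± 0.2) with the sign turned. Gstm3, Prdx6, Gpx1 and Gstt1 followed, with differences of -0.31 ± 0.16, -0.25 ± 0.15, 0.36 ± 0.22 and 0.21 ± 0.14 (adjusted p of 0.930 to 0.980). Among the 42 members averaging at least 1 FPKM in each organ, none had an unadjusted p under 0.05 for this difference.

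Several members differed widely between kidneys of the same treatment, and Gclc had the largest SD of log2(FPKM + 0.5) among them. Gclc had 1595, 1614, 1556, 2318 and 414 FPKM in MaR1 kidneys, against 220, 1521, 816, 683 and 1772 FPKM in vehicle kidneys. It was lowest in RB030 of the vehicle kidneys and RB039 of the MaR1 kidneys, and highest in RB038, a 10.6-fold range. The SD of its log2 level over the 10 kidneys was 1.09, rank 72 of 12446 genes, where the median gene had 0.16. Gclm had 899, 951, 790, 1140 and 316 FPKM in MaR1 kidneys, against 207, 818, 420, 421 and 913 FPKM in vehicle kidneys. Its lowest and highest kidneys were the same as those of Gclc, over a 5.50-fold range. Ggt1 ranged 3.15-fold (257 to 810 FPKM), Gss 3.75-fold (64.5 to 242 FPKM) and Gsta5 3.97-fold (29.0 to 115 FPKM), each lowest in RB030 and highest in RB038. In hearts Gclm ranged only 1.24-fold, between 19.4 and 24.0 FPKM.

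Genes of the last, straight segment of the proximal tubule (S3) were high and low in the same kidneys. The 6 S3 genes Slc7a13, Slc22a7, Slc15a2, Slc6a18, Slc5a1 and Slc1a1, chosen after these values had been seen, summed to 1352, 1325, 1224, 1925 and 340 FPKM in MaR1 kidneys, against 210, 1232, 620, 574 and 1208 FPKM in vehicle kidneys. Per unit of their mean log2 level, the log2 level of Gclc differed by 1.46 ± 0.05, that of Gclm by 1.1 ± 0.05, of Gss by 0.83 ± 0.04, of Gsta5 by 0.8 ± 0.08 and of Ggt1 by 0.71 ± 0.03 (slope ± SE over 10 kidneys, a description with no test). For Gclc the slope was 1.4 within MaR1 kidneys, 1.47 within vehicle kidneys and 1.4 without RB030 and RB039, the kidneys farthest from the median. These 5 of 46 members had slopes above 0.5, where 2.62% of all genes had. Gstm1 ran opposite, with a slope of -0.66 ± 0.08, at 4.87 FPKM in RB038 and 18.5 FPKM in RB030. Prdx2 had a slope of 0.01 ± 0.03 and stayed between 101 and 115 FPKM.

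With the S3 level in the model, the log2 fold change of Gclc with MaR1 was 0.05 ± 0.09 in place of 0.71 ± 0.59, and that of Gclm was 0.14 ± 0.09 in place of 0.63 ± 0.44. No member was called in that model. Txnrd3 stood at -0.23 ± 0.07 there, close to its -0.26 ± 0.07 without it. Whether the S3 share of the tissue or the level per cell set these values cannot be told apart here.

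**Figure D3:**
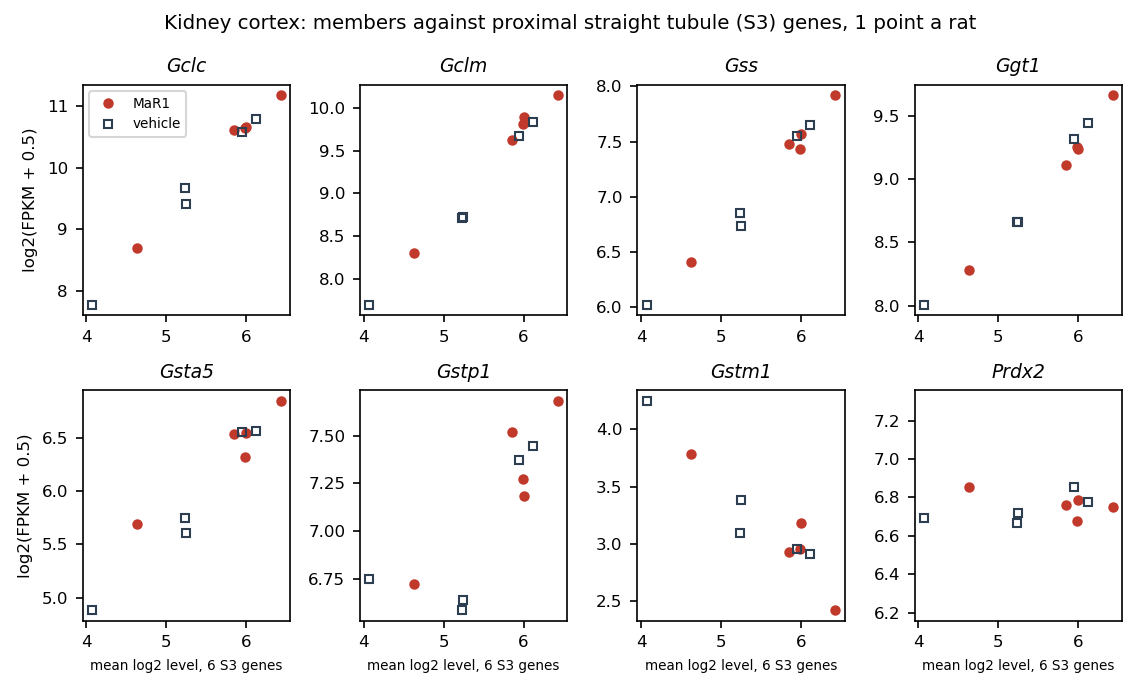
Log2(FPKM + 0.5) of 8 members (vertical axes, each with its own range) against the mean log2 level of 6 S3 genes (horizontal axes) in the 10 kidneys, with MaR1 as filled circles and vehicle as open squares. Gclc, Gclm, Gss, Ggt1, Gsta5 and Gstp1 are higher where S3 genes are higher, Gstm1 is lower there, and Prdx2 is level.

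Other members went with the earlier segments (S1 and S2) of the proximal tubule. The 7 S1 and S2 genes, chosen in the same way, summed to 337 to 989 FPKM in MaR1 kidneys and 682 to 815 FPKM in vehicle kidneys, lowest in RB037 and RB038 and highest in RB039. Per unit of their mean log2 level the log2 level of Gsta1 differed by 0.61 ± 0.1, that of Gpx1 by 0.56 ± 0.13, of Sod3 by 0.56 ± 0.12 and of Mgst3 by 0.48 ± 0.11. The slope of Gpx1 was 0.5 within MaR1 kidneys and 0.19 within vehicle kidneys, whose S1 and S2 levels span little. Without RB037 and RB038 the slope of Sod3 was 0.94. Gstm1 had a slope of 0.63 ± 0.29, but of -1.32 within vehicle kidneys, and the S3-linked genes ran the other way, with Gclc at -1.22 ± 0.64 and Gclm at -0.91 ± 0.49, though at 2.69 and 1.97 within vehicle kidneys. In all 4 of 46 members had slopes above 0.5, where 3.94% of all genes had, and 7 had slopes below -0.3, where 9.34% of all genes had. Gpx1 had 671, 735, 616, 547 and 1024 FPKM in MaR1 kidneys, against 738, 983, 1104, 822 and 853 FPKM in vehicle kidneys (log2 fold change -0.34 ± 0.17, adjusted p = 0.753). The MaR1 kidneys other than RB039 lay below every vehicle kidney. Gpx3 was likewise lowest in RB038, at 955 FPKM, and was highest in RB039, at 2477 FPKM (log2 fold change -0.46 ± 0.23, adjusted p = 0.753).

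Mgst2 was low in kidneys and ranged 98.2-fold between them. It had 0.424, 0.946, 0.277, 2.35 and 4.54 FPKM in MaR1 kidneys, against 1.01, 0.126, 0.694, 0.0462 and 0.317 FPKM in vehicle kidneys (log2 fold change 0.98 ± 0.5, adjusted p = 0.753). With means of 1.71 FPKM in MaR1 kidneys and 0.439 FPKM in vehicle kidneys, Mgst2 entered this test only through the MaR1 kidneys. Its fold change is therefore a description. Urothelium genes summed to 0.886, 17.3, 2.39, 33.9 and 90.6 FPKM in the same MaR1 kidneys and 0.926, 0.719, 0.514, 0.410 and 4.87 FPKM in the vehicle kidneys. RB039 and RB038 were highest in both. The RB039 kidney also held adipocyte transcript. Adipoq was at 120 FPKM (2.77 to 13.2 FPKM in the other 9 kidneys), Plin1 at 45.0 FPKM (0.0341 to 5.80) and Fabp4 at 172 FPKM (2.52 to 17.0). The adipocyte list (9 of 9 matched) summed to 899 to 2645 FPKM in MaR1 kidneys and 1355 to 1809 FPKM in vehicle kidneys. It includes Pck1, which is also in the proximal tubule list, so this sum does not measure fat alone. The part of the urothelium and of adipocytes in the Mgst2 value was not tested.

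Among hearts the median SD of the log2 level was 0.21 over 42 members (0.18 over all genes), close to the 0.22 over 46 members in kidneys (0.16 over all genes). Some heart members went with atrial transcript. Of the 10 hearts, 5 (RB035 and RB038 with MaR1, RB031, RB033 and RB034 with vehicle) had a mean log2 level of 5.93 to 7.33 over 7 atrial genes, and the other 5 had 2.99 to 3.61. More and less atrial transcript refer to this mean log2 level. By summed FPKM the order differed, as RB030 of the lower set had 3095 FPKM and RB031 of the upper set 2965 FPKM. Sod3 had 52.2 to 135 FPKM in the hearts with more atrial transcript, against 45.2 to 49.9 FPKM in those with less, and Gpx8 had 14.1 to 22.6 FPKM against 10.4 to 11.3 FPKM. Prdx5, a peroxiredoxin found in mitochondria and elsewhere, had 38.6 to 50.7 FPKM in the hearts with more, against 54.1 to 65.7 FPKM in those with less, and Prdx2 had 198 to 236 FPKM against 237 to 286 FPKM. Txn2 had 92.7 to 126 FPKM against 126 to 146 FPKM, so its ranges parted only beyond the digits printed. With Txn2 these made 5 of 42 members (11.9%) whose values did not overlap, where 4.27% of all genes did not. The hearts were divided by their own transcripts, so these values are a description with no test.

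Slopes on the mean log2 atrial level were 0.26 ± 0.05 for Sod3, 0.19 ± 0.05 for Gsta1 and 0.18 ± 0.05 for Mgst1, and -0.12 ± 0.03 for Sod2, -0.12 ± 0.04 for Prdx3 and -0.11 ± 0.02 for Txn2, the last 3 being mitochondrial forms. Without RB033 and RB035, the hearts farthest from the median, the slopes were 0.17 for Sod3, -0.06 for Sod2 and -0.07 for Prdx3. Of other members with wide ranges, Ggt1 (2.42-fold, -0.04 ± 0.06) and Gsta4 (2.05-fold, -0.02 ± 0.05) had slopes near 0. Gstm2 (2.56-fold) had a slope of -0.1 ± 0.07, and of 0 without RB033 and RB035. Of 42 members 6 had slopes above 0.1, where 8.84% of all genes had, and 4 had slopes below -0.1, where 7.36% had. With the atrial level in the model, the log2 fold change of Mgst2 with MaR1 stayed at 0.3 ± 0.1 and that of Sod3 was 0.3 ± 0.14 in place of 0.03 ± 0.32. No member was called in that model.

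**Figure D4:**
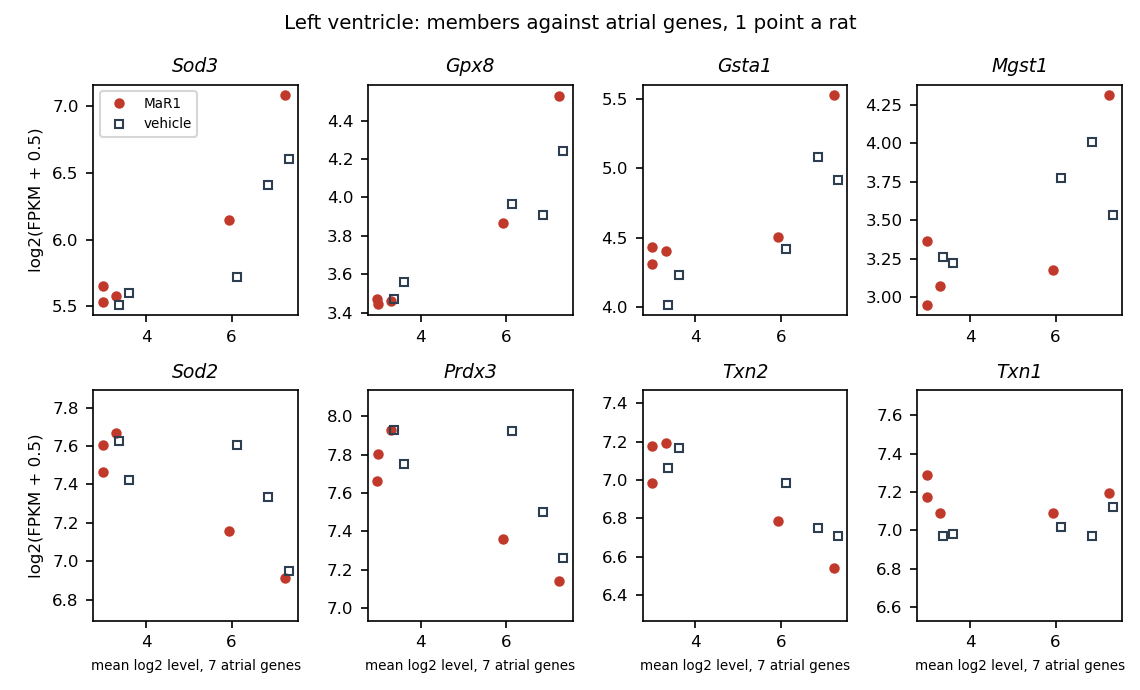
Log2(FPKM + 0.5) of 8 members (vertical axes, each with its own range) against the mean log2 level of 7 atrial genes (horizontal axes) in the 10 hearts, with MaR1 as filled circles and vehicle as open squares. Sod3 and Gpx8 are higher and Txn2 is lower in all 5 hearts at 5.93 and above, Txn2 by very little at its nearest values. Gsta1, Mgst1, Sod2 and Prdx3 overlap and Txn1 is level.

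Genes that regulate or feed these enzymes were read beside them, from 6 lists. No gene of any of them was called for MaR1 in either organ or for the difference of responses (0.00% of all genes in each). NRF2 is the transcription factor that induces many of the members and KEAP1 is the protein that holds it down. In kidneys 7 of 8 tested genes of the NRF2 regulator list had a lower mean log2 level with MaR1 (median -0.16, 0 over all genes), with Nfe2l2, the gene of NRF2, at -0.21 ± 0.1 (adjusted p = 0.753) and Maff, a small MAF partner, at -0.26 ± 0.13 (adjusted p = 0.753). In hearts 4 of 9 were higher and 5 lower (median 0), with Maff at 0.38 ± 0.27 and Sqstm1, an autophagy adaptor that binds KEAP1, at -0.08 ± 0.09 (adjusted p = 1.00 each). Other NRF2 targets had medians of -0.07 in kidneys (14 tested) and 0.09 in hearts (13 tested, 11 higher). Me1, an NADPH-making malic enzyme that is also in the NADPH list, was at 0.32 ± 0.15 in kidneys (adjusted p = 0.743), and the haem transporter gene Slc48a1 was at -0.14 ± 0.08 in kidneys and 0.24 ± 0.1 in hearts. Ephx1, microsomal epoxide hydrolase, was at 0.48 ± 0.2 in hearts (adjusted p = 1.00). Hmox1, the inducible haem oxygenase, named after its values were seen, stood apart in the vehicle rat RB030, at 272 FPKM in its kidney (6.31 to 37.7 FPKM in the other 9) and 80.6 FPKM in its heart (13.8 to 24.3 FPKM in the other 9).

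Among genes of glutathione precursor supply and turnover, 13 of 18 had a higher mean log2 level with MaR1 in kidneys (median 0.03). The smallest p belonged to Slc7a9, a cystine transporter subunit, at -0.44 ± 0.19 (adjusted p = 0.721), and to Dpep1, a brush border dipeptidase, at -0.42 ± 0.19 (adjusted p = 0.728). In hearts Slc1a1, a glutamate and cysteine carrier, was at -0.28 ± 0.15 and Glo1, glyoxalase, at -0.13 ± 0.08 (adjusted p = 1.00 each). Of the NADPH list, Me2 was at 0.08 ± 0.06 in kidneys, and Pgls and Nadk at 0.15 ± 0.09 and 0.14 ± 0.11 in hearts. Of the glutaredoxin and thioredoxin partner list, Sesn3 was at -0.33 ± 0.14 and Txndc12 at 0.16 ± 0.09 in kidneys, and Ccs, the copper chaperone of SOD1, at 0.17 ± 0.07 and Glrx3 at -0.17 ± 0.07 in hearts. Of the selenoprotein list, which serves the selenium-bearing peroxidases and reductases, Selenot was at 0.15 ± 0.07 and Selenoh at -0.2 ± 0.1 in kidneys, and Sephs2 at 0.15 ± 0.07 and Eefsec at -0.12 ± 0.06 in hearts. Adjusted p-values of the genes of these 3 lists lay between 0.721 and 1.00. For the difference of responses, heart minus kidney, the smallest p of each list gave Slc7a9 at 0.96 ± 0.3 (adjusted p = 0.686) with Esd at -0.23 ± 0.15, Slc48a1 at 0.38 ± 0.12 (adjusted p = 0.714) with Ephx1 at 0.67 ± 0.25, and Maff at 0.64 ± 0.32 with Bach1 at 0.3 ± 0.16. The others were Sesn2 at 0.47 ± 0.21 with Txndc12 at -0.24 ± 0.14, Me1 at -0.29 ± 0.24 with Me2 at -0.15 ± 0.14, and Selenot at -0.13 ± 0.08 with Lrp2 at 0.32 ± 0.25. In hearts Slc7a9 averaged 0.529 FPKM with MaR1 and 0.199 FPKM with vehicle, and Lrp2 0.212 and 0.123 FPKM, so both were tested through kidneys only. Proximal tubule genes had positive differences in 15 of 15, 9 with an unadjusted p under 0.05 (5.50% of all genes had such a p) and none called. Only 7 of the 15 averaged at least 1 FPKM in each organ, so these counts are descriptions. The part of proximal tubule transcript was not tested.

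Between organs, most genes of the precursor and turnover list were higher in kidney. With vehicle 17 of its 18 tested genes were higher and 1, Glo1, lower in kidney (-0.78 ± 0.08), against 40.0% higher and 37.0% lower of all genes, and the median log2 difference was 2.62. Slc7a9, Cbs and Cth, which makes cysteine, were tested through kidneys only, and without them 14 of 15 were higher and the median was 1.06. As descriptions, Slc7a9 differed by 7.93 ± 0.12 and Cth by 6.51 ± 0.3. For the lists that follow, the same shares of all genes apply, and no list was tested against them. In the NADPH list 6 of 14 were higher and 6 lower in kidney, with cytosolic Idh1 at 2.9 ± 0.12 and mitochondrial Idh2 at -2.14 ± 0.13. The NRF2 regulators split 4 higher and 4 lower of 9, with Nfe2l2 at 1.01 ± 0.1 and Nfe2l1 at -1.27 ± 0.08. Mafk was tested through hearts only, and without it 4 were higher and 3 lower of 8. Among the other NRF2 targets 6 of 15 were higher and 5 lower, with Nqo1, a quinone reductase, at -1.92 ± 0.11. Abcc2 and Akr7a3 were tested through kidneys only and Cbr1 through hearts only. Without these, 4 of 12 were higher and 4 lower. The glutaredoxin and thioredoxin partner list had 7 higher and 8 lower of 17, and the selenoprotein list 10 higher and 5 lower of 17. Without Lrp2, tested through kidneys only, the selenoprotein list had 9 higher and 5 lower of 16. Of all genes averaging at least 1 FPKM in each organ, 37.9% were higher and 35.5% lower in kidney with vehicle.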

How the data were processed

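Poly-A RNA-seq of 20 libraries was used, 5 rats a group in each organ, with groups taken from the labels. The authors deposited FPKM per gene, without replicates pooled. Per the submitters' processing notes, reads passed through fastp, HISAT2 2.0.5, StringTie 1.3.3b and featureCounts 1.5.0-p3. No source used here gives the genome build or says whether strand was kept, so reads of genes that overlap on opposite strands may be mixed. Multiplying FPKM by gene length and dividing by each library's step returned whole fragments (within 0.01) for 100.00% of 371175 values above 0. At a length of 1 kb, 1 FPKM equals 19.7 to 34.9 fragments. Counting error was not compared with the spread between animals, and it weighs most in genes with few fragments.

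Log2(FPKM + 0.5) was tested with limma 3.58.1 in R 4.3.3 (variance trend, two-sided) on genes whose FPKM averaged 1 or more in the libraries of that fit, with Benjamini-Hochberg adjustment over all genes and a threshold of 0.05. Each organ was fitted alone for treatment, each treatment alone for organ, and all 20 libraries for the difference of responses. The fits were tested on simulated data. The members, lists and tests were chosen with earlier results of these data known, and S3, S1 and S2 genes after their values were seen. Any member may be named, and full statistics are given for the 6 of smallest p in each treatment comparison and the 5 largest organ folds each way. Of each pathway list the 2 genes of smallest p per treatment comparison are named, and organ values of list genes were chosen after they were seen. Symbols with several rows took the row of highest mean.

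Titles show that both organs of a number come from the same animal. Over 10987 genes the deviations from group means correlated between the organs of an animal at -0.00947 to 0.179, with 3 of 10 above 0.1, and the animal entered as a block in an alternative. Other alternatives were pseudocounts of 0.1 and 1, no filter, a mean of at least 5 FPKM, quantile normalization, no variance trend, voom on the recovered fragments, all libraries in 1 model, and leaving out each animal or chosen libraries. The S3 and atrial covariates, the minimum of 1 FPKM in each organ and the fit without the hearts of RB033, RB034 and RB035 were chosen after seeing the data. Figures were drawn with matplotlib 3.10.9.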

Additional observations from a re-analysis of the deposited data

Results flagged for a closer look

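Within groups of 5, a gap between the highest or lowest animal and its neighbour of more than 0.71 of the group's range set 12 values apart. Chance sets about 1 in 20 groups apart, and 12 of 176 is 6.82%. In MaR1 hearts RB035, an animal with high atrial transcript, was highest for Gsta1 (45.7 FPKM, the others 19.3 to 22.2), Sod3 (135 FPKM, the others 45.7 to 70.3) and Mgst1 (19.4 FPKM, the others 7.24 to 9.81). In the same group RB036 was highest for Ggt1 (4.24 FPKM, the others 2.26 to 2.71) and RB037 lowest for Gstm1 (4.17 FPKM, the others 5.03 to 5.17).

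In MaR1 kidneys RB039, the kidney with the most adipocyte transcript, was highest for Sod3 (243 FPKM, the others 115 to 151) and Mgst1 (106 FPKM, the others 65.7 to 74.3) and lowest for Gsto2 (0.944 FPKM, the others 1.62 to 1.79). RB037 was lowest for Gstt2 (32.5 FPKM, the others 37.5 to 39.0) and highest for Gstm3 (3.42 FPKM, the others 2.65 to 2.73), and RB038 was highest for Prdx4 (8.62 FPKM, the others 7.52 to 7.74). In vehicle kidneys RB030 was highest for Gstm1 (18.5 FPKM, the others 7.03 to 9.91), and RB030 was also the kidney with the lowest S3 and proximal tubule transcript (210 and 6584 FPKM summed) and the highest Hmox1 (272 FPKM, the other kidneys 6.31 to 37.7). The part of these in the values was not tested.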

How the results depend on the processing

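No alternative gave a called member in either organ or for the difference of responses, and leaving out 1 animal kept that count at 0. The smallest adjusted p of a member in kidneys was 0.10, without RB039, when 10 members had an unadjusted p under 0.05. Over all genes, kidney calls numbered 10 with all 20 libraries in 1 model and 0 to 1 on leaving out 1 animal (1 without RB035). For the difference of responses they numbered 1 with a pseudocount of 0.1, 1 with no variance trend and 0 to 3 on leaving out 1 animal (3 without RB035, 1 without RB036, 3 without RB039). The cause was not tested. With the animal as replicate block, 39 members with vehicle and 40 with MaR1 differed between organs, as without it, and no member was called for the difference of responses, so the block changed no call of a member. Organ counts of members ran from 34 to 43 with vehicle and from 37 to 42 with MaR1 over the alternatives, lowest among genes averaging at least 1 FPKM in each organ. Under quantile normalization Gpx4 lost its call with MaR1 and was called with the other sign with vehicle. Groups of 5 animals and the spread between them limit what could be seen for Gclc, Gclm, Gss, Ggt1 and Mgst2 in kidneys.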
